A study of Mus musculus with 8 samples.

Results

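The regions described here lie in a stretch of mouse chromosome 4 that holds a cluster of zinc finger genes. They were chosen by position, as all regions of the authors' list that started within a fixed window of 3 Mb on distal chromosome 4 (mm10), and 510 of the 220894 regions in the list met this rule. The first began at chr4:145017361 and the last ended at chr4:147985530. The stretch was singled out because earlier results had shown very high scores there, so the scores below are given as a description and were not tested.

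The study profiled DNA methylation by bisulfite sequencing of captured genomic DNA from 8 mouse cell lines. Of these, 4 were brain tumour lines with mutant IDH, from mice carrying N::TVA and floxed alleles that include Cdkn2a and Atrx. Another 2 were brain tumour lines with wild-type IDH1, labelled RAS glioma, from mice with N::TVA and floxed Cdkn2a alone. The remaining 2 were immortalized astrocyte lines with wild-type IDH1, named PDGFA and IWT-PDGFA, from mice with the same alleles as the mutant tumour lines, and IWT-PDGFA also expressed exogenous wild-type IDH1. All mice were of a mixed C57Bl/6, 129 and FVB/n background, and each line is a separate culture with its own selection history. The file holds 1 list for the whole series, with a start, an end and a score for each region. The score is the authors' own value, and the labels and the file do not say what it measures. It is used only to describe and rank regions within the list. No score belongs to a single line, so mutant and wild-type lines were not compared, sequencing depth per line is unknown, and replicate error cannot be given. Whether reads from duplicated sequence also match other copies was not tested.

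Zinc finger proteins of the C2H2 type bind DNA through repeated fingers, each folded around a zinc ion. Many of those in mammals also carry a KRAB domain, which recruits the corepressor TRIM28 and, through it, histone and DNA methylation to retrotransposons. KRAB zinc finger genes arise by tandem duplication and stand in clusters of related copies, and the cluster on distal chromosome 4 is one of the large mouse clusters. Of 28 protein-coding genes of the RefSeq table that overlapped the stretch, 17 had a zinc finger symbol (Zfp, or Rex2), which fits the name of the cluster.

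The starts of these genes are shown first, because they carry the sequence that the copies share. RefSeq promoter windows of 300 bases (250 before and 50 after the annotated start, build GRCm38.p6, the assembly that mm10 names) were found for 13 of the 17 genes. The 250 bases before the start are printed 5′ to 3′ along the gene's strand, with each CpG, the site of methylation in mammals, in capitals. Rex2, Zfp600 and Zfp979 show near-identical copies, Zfp980 a more distant copy, and Zfp933, at the end of the cluster, a start with less in common (166 of 237 aligned bases shared with Rex2).
Rex2 (chr4:147021600-147021849, strand +): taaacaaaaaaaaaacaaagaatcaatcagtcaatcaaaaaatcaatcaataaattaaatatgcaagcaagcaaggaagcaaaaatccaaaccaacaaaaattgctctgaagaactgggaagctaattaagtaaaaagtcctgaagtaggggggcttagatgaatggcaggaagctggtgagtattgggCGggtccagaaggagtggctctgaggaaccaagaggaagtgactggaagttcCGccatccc
Zfp600 (chr4:146156577-146156826, strand +): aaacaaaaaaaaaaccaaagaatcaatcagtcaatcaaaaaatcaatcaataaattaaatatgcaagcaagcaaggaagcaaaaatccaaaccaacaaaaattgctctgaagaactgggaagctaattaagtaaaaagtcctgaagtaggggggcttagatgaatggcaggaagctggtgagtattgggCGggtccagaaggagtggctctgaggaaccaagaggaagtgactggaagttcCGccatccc
Zfp979 (chr4:147642509-147642758, strand -): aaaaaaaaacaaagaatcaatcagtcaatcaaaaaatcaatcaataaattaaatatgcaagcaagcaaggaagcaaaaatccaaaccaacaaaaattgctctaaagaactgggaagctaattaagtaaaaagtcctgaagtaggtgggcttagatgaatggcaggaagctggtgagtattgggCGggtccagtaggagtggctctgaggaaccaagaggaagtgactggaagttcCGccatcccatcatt
Zfp980 (chr4:145670447-145670696, strand +): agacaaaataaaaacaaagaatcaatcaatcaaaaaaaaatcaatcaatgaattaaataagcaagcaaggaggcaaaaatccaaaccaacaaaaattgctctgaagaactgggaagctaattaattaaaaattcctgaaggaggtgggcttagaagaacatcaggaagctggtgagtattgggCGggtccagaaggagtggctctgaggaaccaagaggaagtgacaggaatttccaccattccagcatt
Zfp933 (chr4:147848419-147848668, strand -): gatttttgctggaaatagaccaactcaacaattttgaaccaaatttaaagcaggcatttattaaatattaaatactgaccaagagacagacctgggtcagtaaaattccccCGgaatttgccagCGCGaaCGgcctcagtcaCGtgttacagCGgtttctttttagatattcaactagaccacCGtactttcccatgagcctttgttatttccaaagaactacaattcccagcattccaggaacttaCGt

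The windows of Rex2 and Zfp600 were identical at all 299 aligned bases, apart from gaps in the alignment, with Zfp992, Zfp981 and Zfp993 lying between the 2 starts. Rex2 and Zfp979 matched at 290 of 294 aligned bases, and Zfp988 and Zfp534 at 281 of 287. Over 69 pairs of windows of different zinc finger genes with at least 200 aligned bases, the median identity was 90.7%, leaving gaps out. By this measure 9 of the 13 genes formed 1 group in which each had 8 partners at 90% or more: Rex2, Zfp534, Zfp600, Zfp979, Zfp980, Zfp982, Zfp985, Zfp987 and Zfp988. A search of all promoter windows of the table with blastn, which counts gaps as differences and aligns only part of a window, was stricter. It also gave 9 genes with a near-identical partner (at least 90% identity over at least 200 bases), with up to 5 partners, but included Zfp984 (with Gm13212) and not Zfp985. All partners found by blastn at this identity lay in the stretch. The gene table is not complete, so copies that are not annotated as genes were not counted.

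Most of these starts shared a short sequence around a CpG. Among stretches of 20 bases with a CpG in the 250 bases before the start, tattgggCGggtccagaagg occurred in the largest number of zinc finger genes, and it was chosen for that. It was present without a mismatch in 7 of the 13 genes, and with at most 2 mismatches in 11, in a search of both strands. Among all 32851 promoter windows of the table, 8 (0.0244%) held it without a mismatch and 12 (0.0365%) with at most 2. The 1 window of a gene without a zinc finger symbol belonged to Gm13212, a predicted gene of the same stretch, and 0 windows of genes outside the stretch held it with at most 2 mismatches. Zfp933 and Zfp993 were the zinc finger genes without it, at 9 mismatches each. A match describes the letters of the window only.

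The zinc finger gene starts held few CpG sites. Their 16 windows had a median of 4.5 CpG and a GC content of 42.8%. The 14 windows of the other protein-coding genes of the stretch had a median of 15 CpG and a GC content of 59.2%, and the median over all windows of the table was 7 CpG and 52.7%. The windows ran from 1 CpG, at a second start of Zfp600, to 16, at the first annotated start of Zfp982. That start and another of Zfp982 were the 2 zinc finger windows that touched no region.

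High scores were spread over most of the stretch, among lower ones, and ended before its sides. The median was 839.5, the lower and upper quartiles were 331 and 2792.5, and the values ran from 111 to 32430. A score of 2000 or more was reached by 158 regions (31.0%), compared with 1.33% of the whole list. The first of these began at chr4:145406401 and the last ended at 147813150, so that all lay within 2.41 Mb. Below that span the 62 regions of the stretch had a median of 460.5 and none passed 1932. Above it the 28 regions had a median of 312 and none passed 1193. At the limits of the rule, the nearest regions outside scored 652 (144999271 to 145000690) and 276 (148006781 to 148007190), and the nearest inside scored 528 and 343, so both limits of the rule lay outside the high-scoring span.

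**Figure D1:**
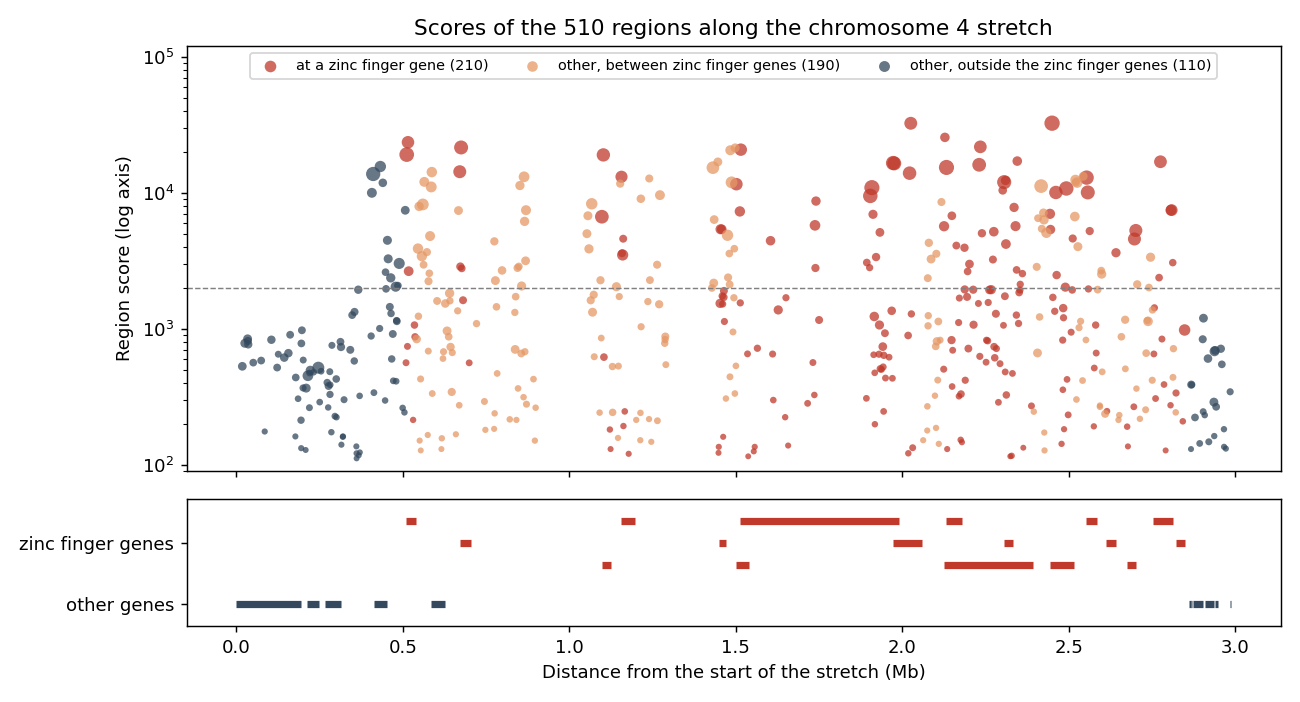
Score of each region (log axis) against its distance from the start of the stretch in Mb, coloured by place, with point size growing with width and the dashed line at 2000; bars below mark the protein-coding genes. High scores fill the zinc finger part and stop on both sides, and 3 gaps of more than 100000 bp hold no region.

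High scores were found at nearly all zinc finger genes of the stretch. A region of any score lay within 1000 bp of all 17, as it did for all 11 other protein-coding genes of the stretch, for 97.8% of zinc finger genes elsewhere and for 83.8% of all protein-coding genes. The 17 had 2 to 67 regions each, with a median of 8, against a median of 4 for all protein-coding genes. A region with a score of 2000 or more was found at 16 of the 17. The same held for 2 of the 11 other genes of the stretch, 9.71% of zinc finger genes elsewhere and 3.97% of all protein-coding genes. The highest scores of the 17 had a median of 16880. Over the 443 of 453 zinc finger genes elsewhere in the genome that had a region, the median of the highest scores was 1048, and the highest single value was 7775, at Zfp996 on chromosome 12. In the stretch, 13 of the 17 genes had a region above that value. The 453 genes elsewhere had symbols beginning with Zfp, Zscan, Znf, Zkscan or Zbtb, a wider set of names than those of the 17. Zinc finger genes with other symbols were not counted. These counts compare genes and are not independent of how the stretch was chosen.

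The highest scores stood at Zfp982 and Rex2. Zfp982 had 20 regions and its highest score, 32430, was also the highest of the stretch, in its widest region (chr4:147448411-147452200, 3790 bp). Rex2 had 8 regions, of which 4 scored 2000 or more, and its highest, 32380, lay at chr4:147024601-147027120. Next came Zfp978 with 25505 (chr4:147127841-147128970), Zfp990 with 23475 (chr4:145514291-145516650) and Zfp980 with 21496 (chr4:145673511-145676570). Each of these genes also had regions with low scores. The median over all regions of the gene was 966 at Zfp990, 2816 at Zfp980 and 1556 at Zfp982, whereas at Rex2 it was 7597.5. The value at Rex2 takes in regions of 16517 and 16421 that also lie in the model of Zfp993. The 6 regions at Rex2 alone scored 32380, 13913, 1282, 890, 133 and 121.

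A middle group of genes had highest scores between 12290 and 20715. Zfp981 and Zfp993 share their highest region (20715, chr4:146514081-146516400), since their annotated gene models overlap. Zfp987 reached 18952, Zfp984 16880 and Zfp991 15326, and Zfp600 reached 13093, Zfp985 12901 and Zfp988 12290. Zfp993 and Zfp978 have gene models of 478623 and 267146 bp that span other zinc finger genes, and so take in 49 and 67 regions. All regions of Zfp991 and Zfp988 also lie in the model of Zfp978.

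The lowest values among the zinc finger genes stood mostly at the upper side of the cluster. Zfp992, in the middle, reached 5383 and Zfp534 reached 5270. Zfp979, whose synonym in the gene table is Ssm1b, a strain-specific modifier known for the DNA methylation of a transgene, had only 2 regions, with scores of 3615 and 247. Zfp933, the last zinc finger gene before the neighbouring genes, had 3 regions and none above 977. It was the 1 gene of the 17 under 2000, and its start lacked the shared sequence. The start of Zfp993 lacked it too, and lay in a region of 7276.

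**Figure D2:**
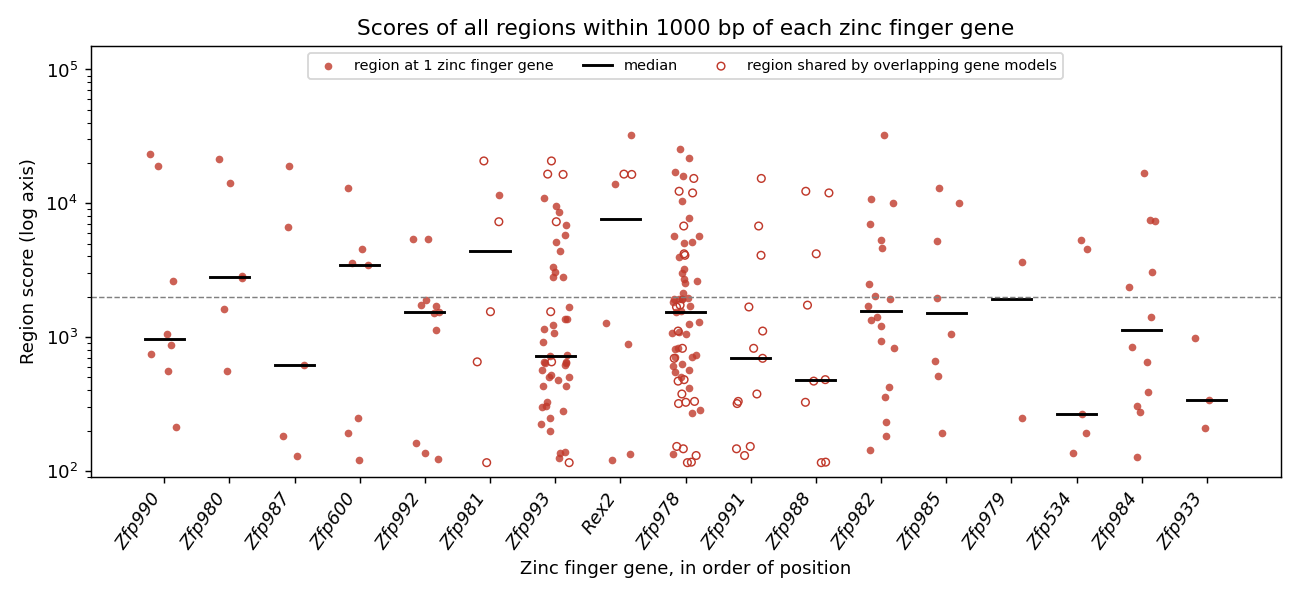
Score (log axis) of every region within 1000 bp of each zinc finger gene, in order of position, with the median as a bar and the dashed line at 2000; open points are regions shared by overlapping gene models. Each gene but Zfp933 has points above 2000, and low-scoring regions lie beside them.

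The other 11 protein-coding genes divided by position. The 9 at the sides of the stretch had no region of 2000 or more. Mfn2, which encodes a protein of mitochondrial fusion, had the highest of them at 1193, followed by Vps13d, a lipid transfer protein gene that crosses the lower limit, at 1147 in a region just outside the stretch. Tnfrsf8 and Tnfrsf1b, which encode receptors of the tumour necrosis factor family, reached 800 and 516. Plod1, a collagen lysyl hydroxylase gene, reached 602 and Nppb, which encodes a natriuretic peptide, 343. Miip and Fv1, a retrovirus restriction gene that itself derives from an endogenous retrovirus, share their highest region, with a score of 387. The other 2 were Gm42346, just below Zfp990, with 15572, and Gm13212, between Zfp990 and Zfp980, with 14168, and they are named here after their values were seen. The gene table does not say whether they encode zinc fingers.

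Regions at zinc finger genes had higher scores than the rest of the stretch, and regions between the genes had scores close to those at the genes. The 210 regions within 1000 bp of a zinc finger gene had a median score of 1242.5 (95% binomial interval of the median 890 to 1677), and the other 300 had 732.5 (612 to 852). Scores of 2000 or more made up 35.7% of the first (95% Wilson interval 29.5 to 42.4) and 27.7% of the second (22.9 to 33.0). The 190 other regions that lay between the zinc finger genes had a median of 1132 (831 to 1581) and a share of 37.4% (30.8 to 44.4). The 110 other regions outside them had a median of 484 and a share of 10.9%, and all 12 of their high scores lay from 145406401 to 145507720, just below Zfp990, with 4 of them at Gm42346. The intervals cover counting of regions only, and regions are not replicates.

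The upper end of the scores leaned further towards the genes. Scores of 5000 or more were reached by 22.9% of regions at zinc finger genes, by 17.9% of those between them and by 0.283% of the list. Of 47 regions with a score of 10000 or more, 27 lay at a zinc finger gene, 17 between them and 3 outside, and they made up 19.2% of all such regions in the list. Of the 9 at 20000 or more, 7 lay at a zinc finger gene. The other 2 scored 21338 (chr4:146497801-146498750) and 20507 (chr4:146483051-146484360), with widths of 950 and 1310 bp, and lay in the model of the pseudogene Vmn2r-ps16. Of the 10 highest regions, Zfp978 held a second (21727, chr4:147233641-147236080) and Zfp990 another (19053, chr4:145509921-145513340). The stretch supplied 39 of the 200 highest regions of the list, but 0 of the highest 10.

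Width separated the genes from the rest in its upper tail only. The median width was 495 bp at zinc finger genes, 530 bp in the rest of the stretch and 460 bp in the list. The upper quartile was 1030 bp at the genes and 787.5 bp in the rest. Of 34 regions in the stretch with a width of 2000 bp or more, 28 lay at zinc finger genes, 4 between them and 2 outside. That is 13.3% of the regions at zinc finger genes and 2% of the rest, beside 1.05% of the list. The 34 wide regions had a median score of 13404.5, against 1127 for all regions of the list that were 2000 bp or wider. The 5 widest were all at zinc finger genes, 3790 bp at Zfp982, 3690 and 3340 bp at Zfp993 (scores 10885 and 9465), 3670 bp at Zfp991 and 3420 bp at Zfp990. Of the 34, 2 scored under 5000, at Tnfrsf1b (516) and Zfp534 (4562).

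Scores were also high for their width. Each score was ranked among all regions of the list within 50 bp of the same width. The median rank was at the percentile 91.8 at zinc finger genes and 95.2 among the other regions between them, whereas it was 52.4 outside. Restricted to widths of 400 to 800 bp, scores had a median of 1551 at the genes (72 regions), 1597 between them (71 regions) and 748.5 outside (42 regions), with 635 in the whole list. By both measures the values at the genes were slightly below those between them, and both were above those outside.

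**Figure D3:**
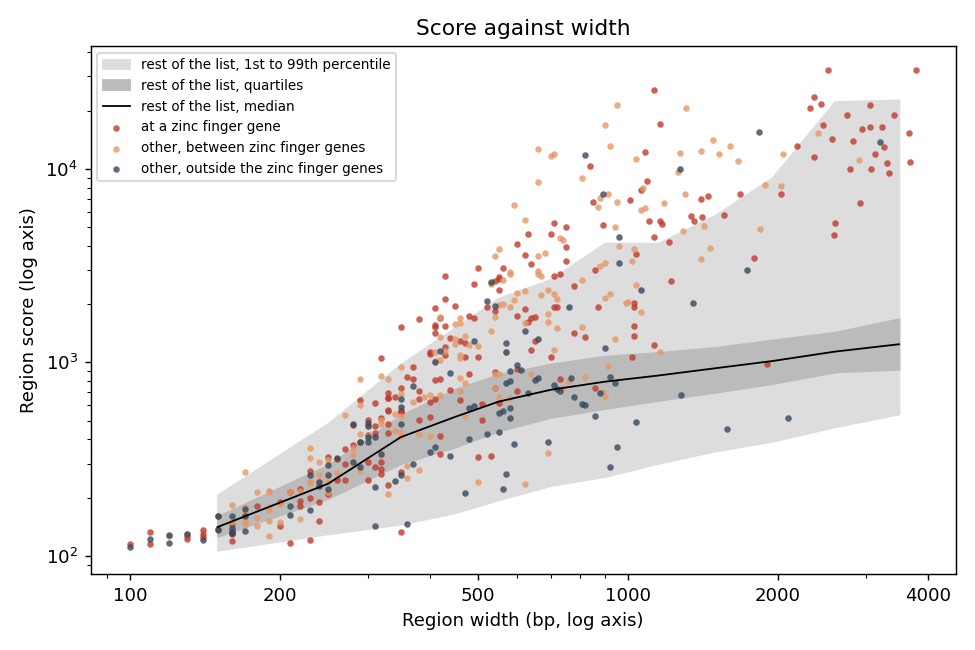
Score against width in bp (both axes log) for the regions of the stretch, over the median, quartiles and 1st to 99th percentile of the rest of the list. Many points at and between the zinc finger genes lie above the light band at widths of 400 to 2000 bp, while wider regions lie mostly in its upper part and the points outside the genes mostly within it.

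Spacing differed less than score. The median gap from a region to the next was 1770 bp at zinc finger genes and 1915 bp in the rest of the stretch. Both were shorter than the 3550 bp of the whole list, but similar gaps were found elsewhere. The median was 2290 bp in the sequence just below the stretch, 1900 bp just above it and 2085 bp at zinc finger genes elsewhere. In the stretches on chromosomes 2 and 13 described below it was 1920 and 3030 bp, and over chromosome 4 without the stretch 3220 bp. The density was 168 regions per Mb of zinc finger gene and flank and 172 per Mb of the rest. That order turned with a flank of 5000 bp (177.6 and 163.7) and without the long models of Zfp978 and Zfp993 (194 and 163). Regions covered 14.4% of the sequence of the zinc finger genes and their flanks and 10.5% of the rest. Over the whole stretch there were 170 regions per Mb.

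Spacing was broken by 3 long gaps within the cluster. No region was listed for 153440 bp from 145899051 to 146052490, for 137800 bp from 146290251 to 146428050, or for 141590 bp from 146750811 to 146892400. Without these gaps the density was 199 regions per Mb. Gaps of 100000 bp or more made up 0.588% of the gaps in the stretch and 1.39% of those in the list. What sequence lies in them was not analysed here.

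High-scoring regions outnumbered the zinc finger genes, so their closer spacing follows from the counts. The lower ends of successive zinc finger gene models, on whichever strand, lay a median of 94956 bp apart, with a range from 7211 to 460761 bp. The 158 regions of 2000 or more followed each other at a median of 4690 bp from start to start, and the 47 regions of 10000 or more at 19610 bp. Regions of any score joined over gaps of at most 500 bp formed blocks, of which 5 in the stretch spanned 5000 bp or more (1.28% of its blocks, against 0.279% of those of the list), and all 5 lay at zinc finger genes. They held 10 of the 47 regions of 10000 or more.

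The long blocks resembled each other in makeup. At Zfp990 the block (chr4:145509431-145518150) held regions 3420 and 2360 bp wide with scores of 19053 and 23475. At Zfp980 it (chr4:145669211-145677220) held regions 2570 and 3060 bp wide with scores of 14257 and 21496. The blocks at Rex2 (chr4:146970521-146977810) and Zfp985 (chr4:147551881-147559790) each held a pair separated by a short gap, 3230 and 3060 bp wide at Rex2 with a gap of 400 bp, and 3260 and 3080 bp wide at Zfp985 with a gap of 380 bp. The block at Rex2 also lies in the model of Zfp993. It lies over the lower end of the Rex2 gene model, ahead of the start of the Rex2 promoter window, which is 48240 bp inside that model. The block inside Zfp978 (chr4:147229871-147236080) held 2950 and 2440 bp. The rule for blocks was set after the regions had been seen.

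Wide regions lay over the starts of the zinc finger genes. For the 13 genes with a promoter window, and with the window in the highest scoring region taken where there were several, the region at the start was 2570 bp wide and scored 10733 at the median. It began 362 to 1118 bp before the start, with a median of 922 bp, and in all 13 genes it reached past the start, by 331 to 2466 bp. The start of Rex2 lay 48240 bp inside its gene model, and that of Zfp982 49303 bp. The start of Zfp982 was thus picked by its score, and its other windows, including that at the edge of its model, touched no region. At the 9 other genes with a region at a window, the median width was 880 bp and the median score 516, and the region began a median of 475 bp before the start.

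A second high-scoring region followed inside most of these genes, and several also had one on the upstream side. Within 3000 bp downstream of the start region, 9 of the 13 zinc finger genes had a region of 2000 or more, and 7 had one of 5000 or more. Of the 9 other genes, 1 did, Gm13212, with 14168. The values here are for the highest region in that distance. Over the same distance upstream of the start region, Zfp600 (11653), Zfp988 (10401), Zfp980 (7386) and Zfp981 (7276, the start region of Zfp993) also reached 2000. So did Zfp984 (3056), Zfp987 (2268), Zfp534 (2117) and Zfp982 (2018), and Gm13212 (4795) among the other genes. Rex2 (890) and Zfp985 (825) did not, and Zfp979, Zfp933 and Zfp993 had no region there. At Rex2 the start region scored 13913 and the downstream region 32380. At Zfp987 the values were 6653 and 18952, and at Zfp980 14257 and 21496. The order was not fixed, since at Zfp985 the start region was higher, with 12901 against 10038, and at Zfp600 it was 13093 against 3581. At Zfp993 the second region is the start region of Zfp981.

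Away from the start the medians were lower. Regions centred 0 to 2000 bp downstream of a zinc finger gene start had a median score of 10733 (13 regions), those at 2000 to 5000 bp 4562 (13 regions), those at 5000 to 10000 bp 471 (14 regions), and those at 10000 to 20000 bp 1617 (7 regions). Upstream the medians were 914.5 within 2000 bp (8 regions), 2268 from 2000 to 5000 bp (11 regions) and 621 from 5000 to 10000 bp (12 regions). The bins just downstream of the start were thus above all the others. Each region was placed by its centre, and the start regions themselves began a median of 922 bp before the start. The bin within 2000 bp upstream therefore leaves out most start regions, and its median does not describe the sequence just before the start. At the other protein-coding genes the medians were 386.5 in the first 2000 bp downstream and 387 in the 2000 bp upstream. Most bins rest on fewer than 20 regions, and some regions count for more than 1 gene where starts are close. Where a gene had several starts, the one in the highest scoring region was used here too.

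**Figure D4:**
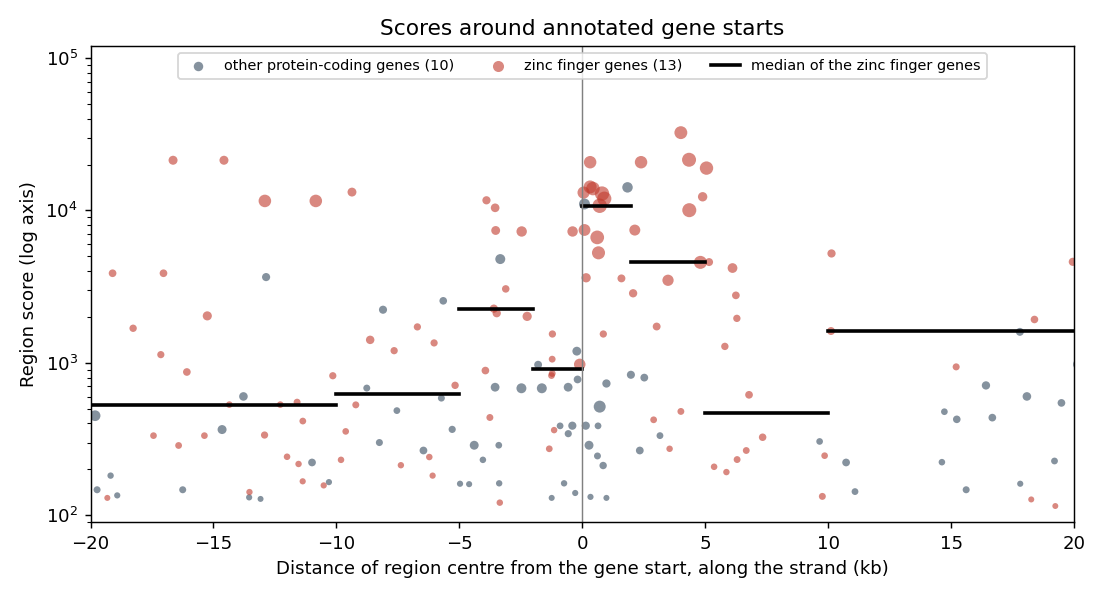
Score (log axis) of regions against the distance of their centre from the annotated gene start in kb, along the strand, for 13 zinc finger genes and 10 other genes; black bars are the medians of the zinc finger genes. The highest median, 10733, is that of regions centred in the first 2 kb downstream of the start, many of which also extend upstream of it. Where a gene has several starts, the one in the highest scoring region is used.

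Some near-identical starts had similar scores and some did not. Of 36 pairs of windows with at least 90% identity, 14 had scores that differed by 2 times or more, and 12 of those included Zfp979 or Zfp534. The median ratio of the higher to the lower score was 1.70 over all 36 pairs. It was 2.64 over the 15 pairs with Zfp979 or Zfp534 and 1.19 over the 21 pairs without them. These 2 genes were set apart after their scores had been seen, so the lower ratio without them follows in part from that choice. The windows of Rex2 and Zfp600, printed above, lay in regions of 13913 and 13093. The window of Zfp979, with 290 of 294 aligned bases identical to that of Rex2, lay in a region of 3615, and the value at Rex2 was 3.85 times as high. The region at Zfp979 was 1040 bp wide and that at Rex2 2830 bp. Zfp988 and Zfp534, with 281 of 287 bases identical, had 11947 and 5270, with widths of 3140 and 2600 bp. The pairs share windows, so they are not independent.

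The stretch stood apart from its surroundings on chromosome 4. The 5 Mb below it held 749 regions with a median score of 327, of which 1 reached 2000. The 5 Mb above it held 1086 regions with a median of 346, of which 3 did. At matched width the median percentiles were 34.0 and 32.8, below the middle of the list. Spacing did not mark the cluster in the same way, since the density was 150 regions per Mb below, 170 in the stretch and 217 above.

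Stretches with zinc finger clusters on 2 other chromosomes had high scores too. In a stretch of 3 Mb on distal chromosome 2, 22.5% of 191 regions scored 2000 or more, and on chromosome 13 from 65 to 68 Mb 22.9% of 455 did. The highest scores there were 9483 and 10347. On chromosome 13 the order of the groups was the opposite of that on chromosome 4: 89 regions at 25 zinc finger genes had a median of 338 and a share of 5.62% at 2000 or more, and among the other 366 the median was 722.5 and 99 scored 2000 or more. On chromosome 2 only 7 genes with a zinc finger symbol were annotated, 2 of them with a region, so that 13 of the 191 regions lay at them. On chromosome 13, 25 of 51 protein-coding genes had a zinc finger symbol. In both stretches genes were placed by symbol only, so regions at any zinc finger gene named otherwise would count among the others. The difference between clusters was not tested.

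**Figure D5:**
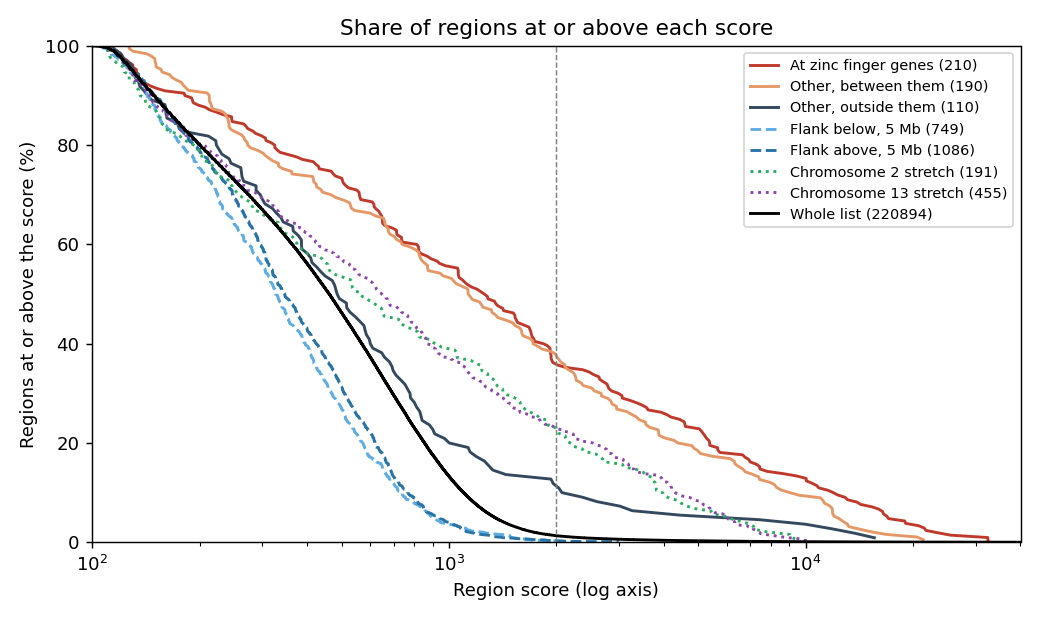
Share of regions (in percent) at or above each score (log axis) for the parts of the chromosome 4 stretch, its flanks, the stretches on chromosomes 2 and 13, and the whole list, with the dashed line at 2000. The curves at and between the zinc finger genes lie close together and above the others from a score of 500 to 10000.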

How the data were processed

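Bisulfite sequencing libraries of 8 cell lines were made after capture with a SureSelect kit from Agilent, per the labels' protocols. Per the submitters' processing notes, Novoalign 3.7.1, Picard and the mm10 build were used. The score, a whole number of at least 100, was deposited by the authors as 1 value per region for the whole series. The step that called the regions was not given in the sources used here. With no values per line, the planned comparison of mutant with wild-type lines was not run. No test was made, and medians, quartiles and shares are descriptions. Members and lists were chosen with earlier results of these data known.

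A region sharing 1 bp or more with a zinc finger gene, or with 1000 bp to each side, was placed at that gene. Genes came from the RefSeq table of GRCm38.p6. A count of C2H2 motifs in proteins was planned, but protein sequences were not used here, so genes were taken by symbol, the planned fallback. Symbols beginning with Zfp, Zscan, Znf, Zkscan or Zbtb, and Rex2, counted as zinc finger genes. The rule for named genes took the 15 zinc finger genes with the highest and the 5 with the lowest maximum score, and other genes without a Gm, Rik or LOC symbol. Blocks, pairs of wide regions, start windows and the shared stretch of 20 bases were added after seeing the data. RefSeq promoter windows were compared with blastn 2.17.0 and Biopython 1.88 in Python 3.11.15, and the code was tested on simulated data. Coordinates count from 1. Intervals of shares are 95% Wilson intervals. Alternatives were other flanks, placement by midpoint, a minimum score of 200, other thresholds and identities, a fixed width range and 2 changes to the gene list. Of the mouse genotypes, 1 allele is not reported here.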

Additional observations from a re-analysis of the deposited data

How the results depend on the processing

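Of 68 values recomputed under alternatives for 11 results, 60 stayed within the interval of the value given (for counts of regions or promoters and for density, within 1.5 times it) and 8 moved. Most alternatives reuse largely the same regions, so many values could hardly move, and the tally does not measure replicate error. Under every alternative run for each quantity, the median score and the share of high scores were higher at zinc finger genes than in the rest of the stretch, and the median width and gap were smaller. The order of density turned, to 177.6 regions per Mb at the genes and 163.7 in the rest with a flank of 5000 bp, and to 194 and 163 without Zfp978 and Zfp993. With scores of 200 or more only, the median of the rest was 871, and with widths of 400 to 800 bp it was 1132. With a threshold of 1000 the share was 55.2% at zinc finger genes and 41% in the rest, and with 5000 it was 22.9% and 13%. The median number of near-identical promoters per zinc finger gene by blastn was 2 at 90% identity, 0 at 95% and 10 at 80%. Over the 13 genes, the Spearman correlation of the number at 90% with the highest score of the gene was 0.0169. It is given as a description and was not tested. At 80%, 1 of the 13 genes also had a partner outside the stretch. The symbol-based gene list, planned as an alternative, was the list used and gives no second value. Adding Gm42346 and Gm13212, and leaving out Zfp978 and Zfp993, were chosen after seeing the data. No paired analysis was possible because the list holds no value per line. Depth is unknown.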

Other observations

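Pseudogenes made up 56 of the 92 annotated genes of the stretch, and 45 of them had a region within 1000 bp. Of these, 26 had a region of 2000 or more, and the median highest score was 2793. Counted by gene in the same way, 16 of the 17 zinc finger genes and 2 of the 11 other protein-coding genes of the stretch had one. Of single regions in the stretch, 31.0% reached that score, but a long model such as Vmn2r-ps16 takes in 36 regions. All 6 pseudogenes of the vomeronasal receptor family Vmn2r, whose intact members detect pheromones, had a region of 2000 or more. However, 5 of the 6 overlap a zinc finger gene or lie within 1000 bp of one, Vmn2r-ps20 being the exception. The highest, 21338, lay in Vmn2r-ps16 (chr4:146497801-146498750), outside the zinc finger gene models, and Vmn2r-ps20 reached 12421. Among the regions between zinc finger genes, the 70 at pseudogenes had a median score of 1450.5 and the 120 away from them 945.5, with shares of 2000 or more of 40% and 35.8%.

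Genes of the silencing machinery that KRAB zinc finger proteins recruit had scores near those of all protein-coding genes. All 14 listed genes had a region within 1000 bp, against 83.8% of protein-coding genes, and their median highest score was 1105, against 1003. Of the 14, 0 reached 2000, and 3.97% of protein-coding genes did. The highest were Atf7ip, a partner of the methyltransferase SETDB1, at 1753 and Smarcad1 at 1472, and Trim28 itself reached 811.

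Outside the stretch, the zinc finger genes with the highest scores after Zfp996 were Zfp971 on chromosome 2 (7281), Zfp640 on chromosome 13 (6921) and Zfp972 on chromosome 2 (5942).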
